A study of Mus musculus with 5 samples.

Results

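The 36 genes described here encode Polycomb proteins, enzymes that add or remove methyl and acetyl groups on histones, and enzymes that add or oxidise methyl groups on DNA. They were taken from a list of gene names, which was chosen with earlier results of these data known. All 36 were measured among 18193 genes. Each was read by the probe set with the highest mean over the 5 arrays, among probe sets whose platform annotation gives that gene alone. The genes fall into 15 Polycomb genes, 8 histone writers outside Polycomb, 7 histone erasers and 6 DNA methylation enzymes.

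Polycomb repressive complex PRC2 methylates histone H3 at silenced genes, and PRC1 reads that mark and ubiquitinates histone H2A. Trithorax-type enzymes such as the MLL proteins mark active genes in opposition to them. In blood-forming stem cells these systems hold self-renewal and differentiation programmes in place, and several of the genes (Asxl1, Ezh2, Dnmt3a, Tet2, Kmt2a) are recurrently altered in human myeloid leukaemia.

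RNA came from bone marrow cells of C57BL/6 mice, sorted by flow cytometry and amplified linearly before hybridisation to Affymetrix whole-genome arrays. There were 2 arrays from MSI2-inducible mice, which can be made to express the RNA-binding protein Musashi 2, and 3 arrays from control rtTA mice, which carry the doxycycline-dependent transactivator; the genotype labels name rtTA for the control mice alone. Each sample label names Kit-positive, Sca1-positive cells of low lineage marker level (LSK), whereas the series text names cells without Sca1 (LK). Whether and for how long the transgene was induced, the promoter that drives it, and the age and number of the mice are not given in the sources used here, so p-values cover only how far these arrays scatter, part of which may be technical. Values are log2 of the deposited intensities, and a positive difference means higher in MSI2-inducible than in control rtTA arrays.

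Over all genes the arrays correlated at 0.965 to 0.986 (Pearson) between groups, at 0.976 between both MSI2-inducible arrays and at 0.979 to 0.989 among control rtTA arrays. Kit lay at 8.80 and 9.50 in MSI2-inducible replicates 1 and 2, against 9.19, 9.35 and 9.66 in control rtTA replicates 1, 2 and 3. The brightest probe set of the endogenous mouse Msi2 gene lay at 11.00 and 11.43 in MSI2-inducible arrays, against 11.67, 11.76 and 11.74 in control rtTA arrays. Its difference of -0.51 did not pass the test (limma adjusted p 0.883), and since the transgene's sequence is not given in the labels, it checks nothing about them. Of the 8 Msi2 probe sets 7 were lower, with differences of -0.51 to 0.05 (lowest limma adjusted p 0.866 over all probe sets). A second bright Msi2 set (-0.32) was also below every control array in both MSI2-inducible arrays. The Y-linked gene Eif2s3y lay at 2.76 and 2.64 in MSI2-inducible arrays, against 5.91, 3.89 and 5.49 in control rtTA arrays, below the control range in both MSI2-inducible arrays. Y-linked Kdm5d overlapped, at 3.36 and 2.05 in MSI2-inducible arrays, against 6.65, 2.35 and 5.40 in control rtTA arrays, and so did Uty. Xist, made from the inactive X chromosome, was high in every array, at 12.49 and 12.86 in MSI2-inducible arrays, against 12.64, 12.69 and 12.90 in control rtTA arrays. The labels do not state the sex of the mice, its part was not tested, and 0 of the 36 genes lie on a sex chromosome.

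None of the chromatin regulators passed the test for a difference between MSI2-inducible and control rtTA cells, a comparison of 2 with 3 arrays. With limma and Benjamini-Hochberg adjustment over all genes, 0 of 36 passed an adjusted p of 0.05, where 0.022% of all genes did (0.0165% higher and 0.0055% lower), and their lowest adjusted p was 0.883. At an unadjusted limma p under 0.05 there was 1 gene, Asxl1, lower in MSI2-inducible cells, where 5.64% of all genes reached that p. For 6 of the 36 the groups' arrays did not overlap (16.7%), against 18.7% of all genes, a share near the background. Of these, Kdm6b, Kmt2a and Eed were higher in both MSI2-inducible arrays, as were 9.27% of all genes, and Asxl1, Kdm5b and Dnmt1 were lower in both, as were 9.39% of all genes.

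Differences were small in both directions. They ran from -0.83 for Ezh1 to 0.52 for Men1, with 14 genes higher and 22 lower and a median of -0.04, beside a median of 0.00 over all genes. The median size of a difference, without regard to sign, was 0.125 over the 36 genes and 0.180 over all genes. A difference over 1 on the log2 scale, either way, was measured for 0 of the 36 genes and for 2.72% of all genes. The 95% confidence intervals lay wholly within 1 log2 unit either side of no difference for 30 of the 36, and for 13080 of all 18193 genes. None of these intervals shows that a gene did not change.

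**Figure D1:**
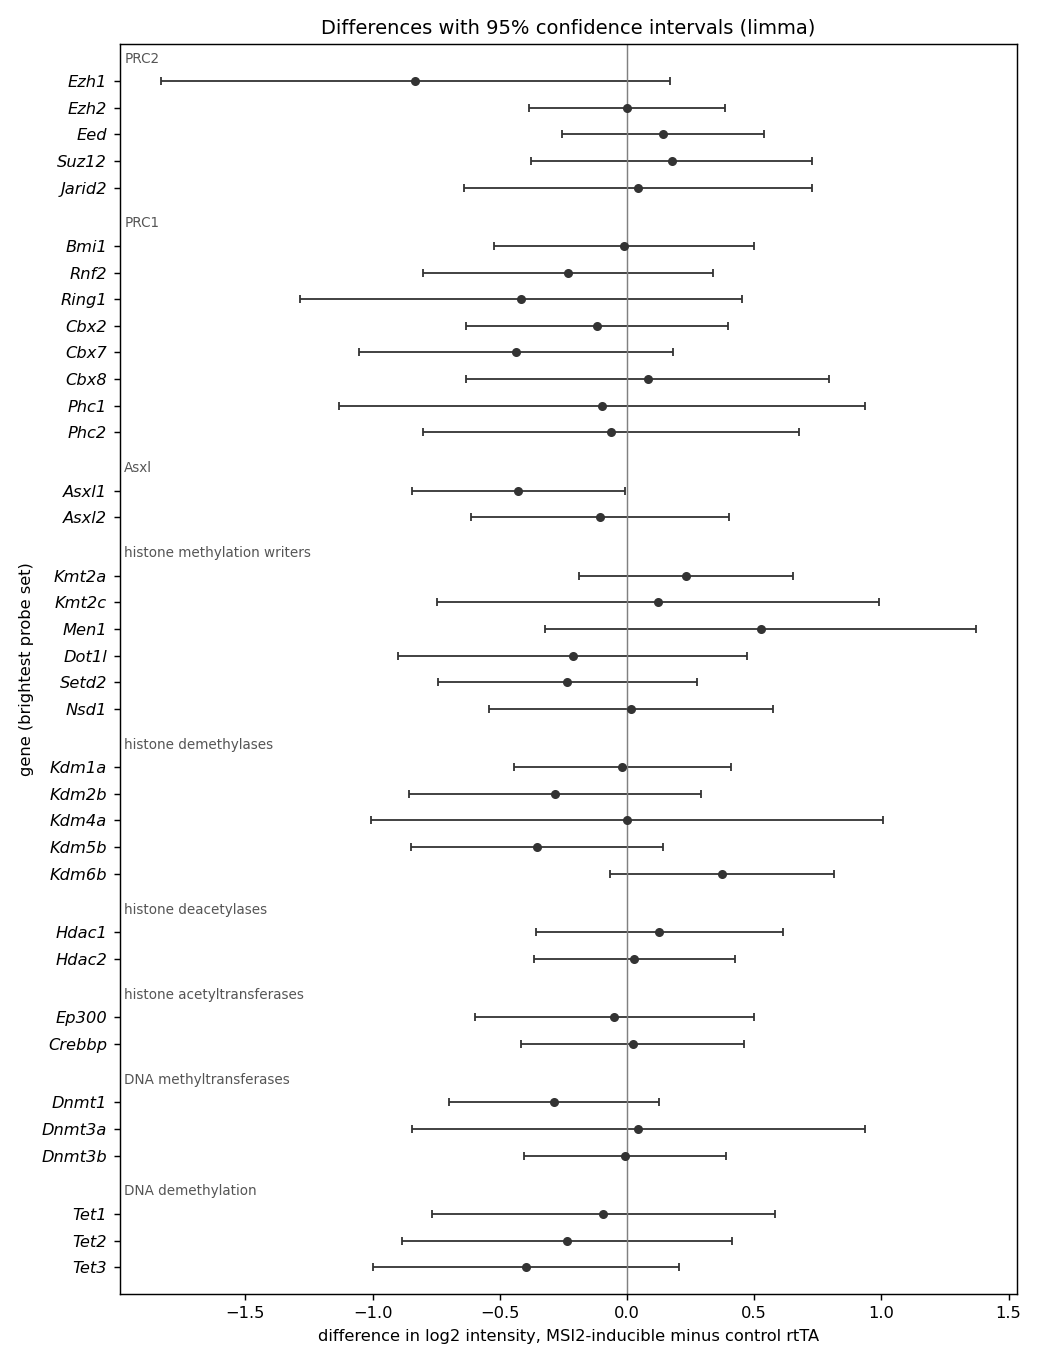
Difference in log2 intensity (MSI2-inducible minus control rtTA, horizontal axis) of the brightest probe set of each of the 36 genes, grouped by role down the page; points are limma estimates and bars are 95% confidence intervals. The interval of Asxl1 is the only one of the 36 that leaves out 0, ending at -0.01.

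**Figure D2:**
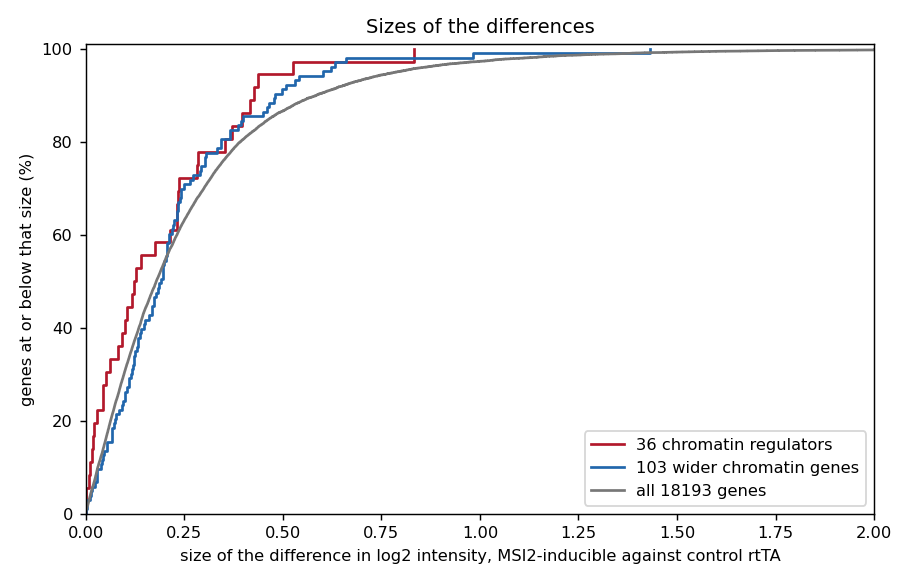
Percentage of genes (vertical axis) whose difference between MSI2-inducible and control rtTA arrays is at or below the size on the horizontal axis (log2, sign ignored, drawn up to 2) for the 36 genes, the 103 wider chromatin genes and all 18193 genes. The curve of the 36 genes ends at Ezh1, at 0.83, and the median size is 0.125 for them and 0.180 for all genes.

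Among PRC2 genes, Ezh2, the catalytic subunit prevalent in dividing cells, was almost level across the arrays. It lay at 10.53 and 10.51 in MSI2-inducible replicates 1 and 2, against 10.52, 10.51 and 10.52 in control rtTA replicates 1, 2 and 3, a range of 0.0126. Its difference was 0.000783 with a 95% interval from -0.38 to 0.39. It has 1 probe set, and the deposited values of MSI2-inducible replicate 2 and control rtTA replicate 2 were equal, as were those of at least 1 pair of arrays for 18.6% of all probe sets (tolerance 1e-06 on the log2 scale).

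Ezh1, the alternative catalytic subunit that persists in cells that divide little, was chosen after its values were seen because its difference was the largest in size of the 36. It lay at 6.79 and 7.98 in MSI2-inducible arrays, against 7.78, 8.42 and 8.46 in control rtTA arrays, so that MSI2-inducible replicate 1 was the lowest and replicate 2 lay inside the control range. The difference was -0.83 (SE 0.41, limma adjusted p 0.911). The other Ezh1 probe sets differed by 0.32, 0.15 and 0.56, all in the opposite direction, and the mean of its 4 probe sets by 0.05. The sets at 0.15 and 0.56 were dim, with means below the median of all probe sets, so their differences are less certain.

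Eed, the subunit that binds the methylated histone and stimulates the enzyme, lay at 10.77 and 10.84 in MSI2-inducible arrays, against 10.70, 10.70 and 10.58 in control rtTA arrays. The groups did not overlap, but the difference of 0.14 (95% interval -0.26 to 0.54) did not pass the test (limma adjusted p 0.949), and its second probe set, a dim one, differed by -0.19. Suz12, the scaffold of the complex, lay at 11.23 and 10.88 in MSI2-inducible arrays, against 10.60, 10.98 and 11.06 in control rtTA arrays. The groups overlapped, and its 6 probe sets differed by -0.25 to 0.18. Jarid2, which helps PRC2 to its targets, differed by 0.04, and its other probe sets by -0.33 and -0.76.

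Promoters of these genes are shown for the gene with the most level values, Ezh2, and for Kdm5b, one of the histone demethylases (with Kdm2b) whose probe sets were all lower. In them CG dinucleotides, which DNA methyltransferases and Tet enzymes act on and which Kdm2b binds when unmethylated, are in capitals. The sequences are the 250 bases before the RefSeq start site (GRCm38.p6), read 5′ to 3′ along the gene, at chr6:47595031-47595280 on the minus strand for Ezh2 and chr1:134559928-134560177 on the plus strand for Kdm5b.
Ezh2: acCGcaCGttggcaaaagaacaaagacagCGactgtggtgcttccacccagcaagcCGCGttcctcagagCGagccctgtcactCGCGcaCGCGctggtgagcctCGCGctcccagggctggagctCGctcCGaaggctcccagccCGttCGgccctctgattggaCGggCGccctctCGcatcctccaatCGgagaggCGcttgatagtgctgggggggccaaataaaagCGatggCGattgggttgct
Kdm5b: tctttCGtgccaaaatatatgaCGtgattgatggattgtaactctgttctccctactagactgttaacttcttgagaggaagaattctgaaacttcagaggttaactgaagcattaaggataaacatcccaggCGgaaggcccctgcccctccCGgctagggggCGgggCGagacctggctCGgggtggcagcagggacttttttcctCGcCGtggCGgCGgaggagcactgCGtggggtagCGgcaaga
The motif searched was CG, which reads the same on both strands. It occurs 23 times before Ezh2 and 13 times before Kdm5b, and 13.3% and 31.5% of all 32851 promoters in the table hold as many or more. Promoters were found for 32 of the 36 genes, 44 in all, with a median of 22 CG dinucleotides (range 1 to 51), beside a median of 6 over all promoters. The latter belong to 27025 genes, not only to the 18193 measured, and were not matched to the 36 for expression. No measurement here reads methylation or protein binding at these promoters.

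**Figure D3:**
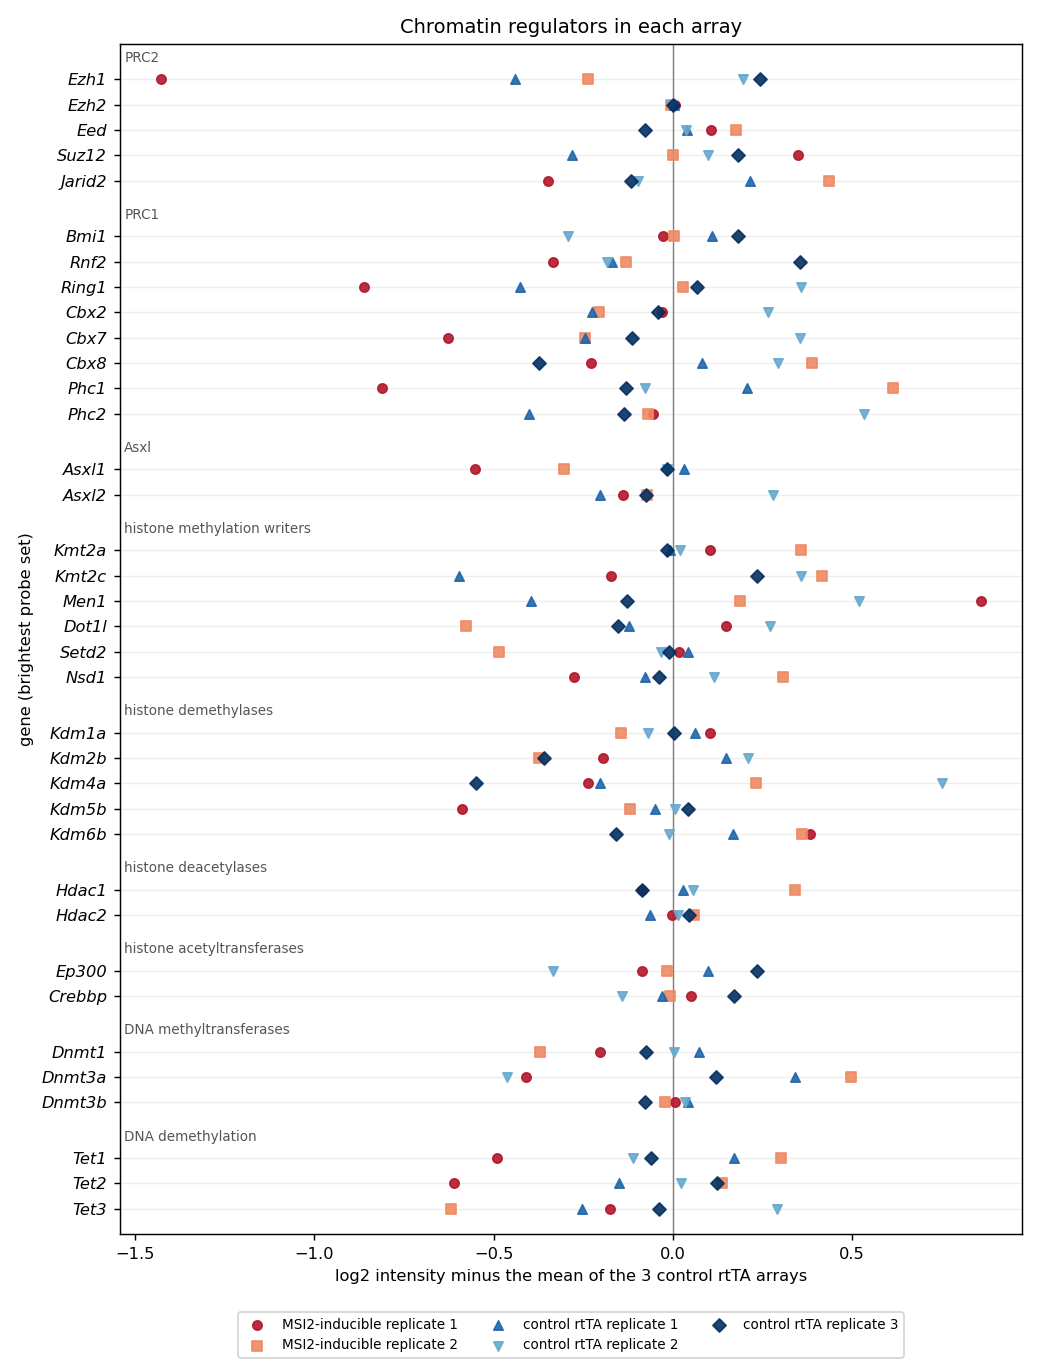
Log2 intensity of each of the 36 genes minus its own mean over the 3 control rtTA arrays (horizontal axis), with 1 symbol per array and genes grouped by role. The 5 symbols of Ezh2 coincide, whereas MSI2-inducible replicate 1 lies far to the left of replicate 2 for Ezh1, Ring1, Phc1, Tet1 and Tet2.

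PRC1 genes were lower by the sign of the difference in 7 of 8 cases, with a median of -0.11. For 0 of 8 did the arrays not overlap. Of all 18193 genes, 9031 were lower and 18.7% did not overlap. Single control rtTA arrays strayed further than -0.11. With each PRC1 gene set against its control average, the array medians were -0.20, 0.28 and -0.08 for control rtTA. They were -0.28 for MSI2-inducible replicate 1 and -0.03 for replicate 2. Bmi1, a Ring finger partner needed for stem cell self-renewal, lay at 8.88 and 8.91 in MSI2-inducible arrays, against 9.02, 8.62 and 9.09 in control rtTA arrays (Bmi1 was added after its values were seen). Its difference was -0.01 with a 95% interval from -0.52 to 0.50. Rnf2, the main ubiquitin ligase of PRC1, lay at 8.92 and 9.13 in MSI2-inducible arrays, against 9.09, 9.07 and 9.61 in control rtTA arrays. Control rtTA replicate 3 stood above the rest, and 4 of the 5 Rnf2 probe sets were higher in MSI2-inducible cells although the brightest was lower (-0.23). Of the higher sets, those at 0.27 and 0.47 were dim, with means below the median of all probe sets, and that at 0.34 lay near it.

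Phc1, a polyhomeotic protein that joins PRC1 complexes into larger assemblies, lay at 8.18 and 9.61 in MSI2-inducible arrays, against 9.20, 8.92 and 8.87 in control rtTA arrays. Its lowest and its highest value were thus both in MSI2-inducible arrays, 1.43 apart, and the group difference was -0.10. Ring1, the second ligase, differed by -0.42, with MSI2-inducible replicate 1 at 8.08 and replicate 2 at 8.98, against 8.52 to 9.31 in control rtTA arrays. The chromodomain proteins, which bind the PRC2 mark, differed by -0.44 (Cbx7), -0.12 (Cbx2) and 0.08 (Cbx8). All 3 Cbx7 probe sets were lower (-0.25 to -0.53), but MSI2-inducible replicate 2, at 6.58, was level with the lowest control array in the brightest. Phc2 differed by -0.06.

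Asxl1, the partner of the deubiquitinase Bap1 that removes the PRC1 mark from histone H2A, lay at 9.14 and 9.39 in MSI2-inducible arrays, against 9.73, 9.68 and 9.68 in control rtTA arrays. Both MSI2-inducible arrays were below every control array. The control SD was 0.03, and the deposited values of control rtTA replicates 2 and 3 were equal. The difference was -0.43 (SE 0.17, 95% interval -0.85 to -0.01), with an unadjusted limma p of 0.047 and an adjusted p of 0.883. A second Asxl1 probe set was lower in both MSI2-inducible arrays as well (-0.27), whereas the third differed by 0.01. Asxl2, its paralogue, lay at 8.85 and 8.91 in MSI2-inducible arrays, against 8.78, 9.27 and 8.91 in control rtTA arrays, and these groups overlapped.

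Of 6 genes for histone methyltransferases linked to active genes and their cofactor, 4 were higher, and the median difference was 0.07. Of all 18193 genes, 9162 were higher. Kmt2a, the MLL protein of leukaemic translocations, lay at 9.43 and 9.69 in MSI2-inducible arrays, against 9.32, 9.35 and 9.31 in control rtTA arrays. The groups did not overlap, yet the difference of 0.23 (SE 0.17) did not pass the test (limma adjusted p 0.925), and the second Kmt2a probe set differed by -0.24. Men1, the menin adaptor of MLL complexes (chosen after its values were seen, as the highest difference), lay at 8.81 and 8.13 in MSI2-inducible arrays, against 7.55, 8.47 and 7.82 in control rtTA arrays. It overlapped between the groups, with a difference of 0.52, and its other probe sets differed by 0.07 and -0.03.

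Nsd1, which methylates histone H3 over transcribed genes, lay at 11.31 and 11.89 in MSI2-inducible arrays, against 11.50, 11.70 and 11.54 in control rtTA arrays. The 2 MSI2-inducible arrays held its lowest and highest value, and its difference was 0.02. Kmt2c, an enhancer-marking MLL protein, lay at 10.14 and 10.73 in MSI2-inducible arrays, against 9.71, 10.67 and 10.55 in control rtTA arrays, with control rtTA replicate 1 lowest. Setd2, the enzyme that trimethylates histone H3 behind RNA polymerase, differed by -0.23 and Dot1l, a cofactor of MLL leukaemia, by -0.21. In both of them MSI2-inducible replicate 2 was the lowest array, at 8.94 for Setd2 and 7.39 for Dot1l.

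The acetyltransferases Crebbp and Ep300, coactivators that acetylate histones at enhancers, differed by 0.02 and -0.05. Crebbp lay at 10.96 and 10.90 in MSI2-inducible arrays, against 10.88, 10.77 and 11.08 in control rtTA arrays. Ep300 lay at 6.99 and 7.06 in MSI2-inducible arrays, against 7.17, 6.74 and 7.31 in control rtTA arrays. For both genes the MSI2-inducible arrays lay inside the control range.

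Of the 7 erasers, Kdm6b was higher and Kdm5b lower in both MSI2-inducible arrays, and neither passed the test. Kdm6b, which removes the PRC2 mark and is inducible by inflammatory signals, lay at 9.11 and 9.09 in MSI2-inducible arrays, against 8.89, 8.72 and 8.57 in control rtTA arrays. Both MSI2-inducible arrays were above every control array, and the difference was 0.37 (SE 0.18, 95% interval -0.07 to 0.81, limma adjusted p 0.911). The brightest Kdm6b probe set is an _x_at set, whose probes can match other transcripts.

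A second Kdm6b probe set, not an _x_at set, lay at 7.80 and 7.09 in MSI2-inducible arrays, against 5.47, 5.59 and 5.15 in control rtTA arrays. It was higher in both MSI2-inducible arrays by 2.04 (SE 0.28), with an unadjusted limma p of 0.000396 and an adjusted p of 0.329 over all probe sets, and the third, dim set differed by 0.02. The control rtTA values of the second set lay near or under the median of all probe sets. With _x_at probe sets left out, this set represents Kdm6b, and the lowest adjusted p of the 36 genes was then 0.234. Immediate early and heat shock genes were higher in the same arrays, with a summed intensity of 40919 to 46524 in MSI2-inducible arrays, against 23389 to 33856 in control rtTA arrays, and 16 of 17 measured genes of that list higher. Their part in the Kdm6b values was not tested.

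Kdm5b, which removes the active methyl mark from histone H3, lay at 9.08 and 9.55 in MSI2-inducible arrays, against 9.62, 9.67 and 9.71 in control rtTA arrays. Both MSI2-inducible arrays were below every control array, with a difference of -0.35 (SE 0.20, limma adjusted p 0.912). All 4 Kdm5b probe sets were lower, with differences of -1.38 to -0.35. The second brightest lay at 8.42 and 8.25 in MSI2-inducible arrays, against 9.09, 9.02 and 9.26 in control rtTA arrays, a difference of -0.79 (SE 0.18) with an unadjusted limma p of 0.00562 and an adjusted p of 0.622 over all probe sets. The remaining sets of Kdm5b were dim, with means below the array-wide probe set median of 5.57, and the sizes of their differences are less certain. The promoter of Kdm5b is printed above.

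Kdm2b, which tethers a PRC1 variant to unmethylated CG-rich DNA, lay at 9.26 and 9.08 in MSI2-inducible arrays, against 9.60, 9.66 and 9.09 in control rtTA arrays. Control rtTA replicate 3 was as low as MSI2-inducible replicate 2, so the groups overlapped (difference -0.28). In its second probe set both MSI2-inducible arrays, at 8.49 and 8.56, were below the control rtTA arrays, at 9.11, 8.97 and 8.88. That set differed by -0.46 with an unadjusted limma p of 0.0421 and an adjusted p of 0.852 over all probe sets.

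Kdm1a, the flavin-dependent demethylase LSD1, lay at 11.17 and 10.93 in MSI2-inducible arrays, against 11.13, 11.00 and 11.07 in control rtTA arrays, and its MSI2-inducible values spanned those of the control. Kdm4a differed by -0.00116, with a control SD of 0.67, the highest among the 36 genes. The deacetylases Hdac1 and Hdac2, which remove acetyl groups within corepressor complexes, differed by 0.13 and 0.03. Hdac1 lay at 10.88 and 11.30 in MSI2-inducible arrays, against 10.99, 11.02 and 10.88 in control rtTA arrays. Hdac2 lay at 11.85 and 11.91 in MSI2-inducible arrays, against 11.79, 11.87 and 11.90 in control rtTA arrays. In both genes the groups overlapped, and only MSI2-inducible replicate 2 was above the control range.

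Among DNA methylation enzymes 5 of 6 had a negative difference, with a median of -0.16 and 0 of 6 past an unadjusted limma p of 0.05. Of all 18193 genes, 9031 had a negative difference and 5.64% reached that p. The median deviation of the 6 from the control mean was -0.31 in MSI2-inducible replicate 1 but 0.06 in replicate 2, against 0.06, 0.01 and -0.05 in control rtTA arrays. Dnmt1, which copies methylation onto newly made DNA, lay at 12.33 and 12.17 in MSI2-inducible arrays, against 12.61, 12.54 and 12.46 in control rtTA arrays. Both MSI2-inducible arrays were below every control array, with a difference of -0.29 (SE 0.17, limma adjusted p 0.912). A second Dnmt1 probe set was lower in both arrays too (-0.24), but both of these are _x_at sets, and the third set differed by 0.05.

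Dnmt3a, the enzyme of new methylation whose loss expands stem cells in mice, lay at 9.68 and 10.59 in MSI2-inducible arrays, against 10.43, 9.63 and 10.21 in control rtTA arrays. MSI2-inducible replicate 1 and control rtTA replicate 2 were the low arrays, and the group difference was 0.04 (95% interval -0.85 to 0.93). Dnmt3b, its paralogue, lay at 10.16 and 10.13 in MSI2-inducible arrays, against 10.20, 10.19 and 10.08 in control rtTA arrays. It varied by 0.121 over all arrays, with a difference of -0.01.

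The Tet enzymes oxidise methylated cytosine as a step towards its removal, and all 3 had negative differences. Tet2 lay at 8.31 and 9.06 in MSI2-inducible arrays, against 8.77, 8.94 and 9.04 in control rtTA arrays, and Tet1 at 7.65 and 8.45 in MSI2-inducible arrays, against 8.31, 8.03 and 8.08 in control rtTA arrays. In each, MSI2-inducible replicate 1 was the lowest array and replicate 2 the highest. Tet3 differed by -0.40, with MSI2-inducible replicates at 7.24 and 6.80, against 7.16, 7.71 and 7.38 in control rtTA arrays. Its order was the reverse of that of Tet1 and Tet2, with MSI2-inducible replicate 2 lowest.

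The 36 genes were read by 97 probe sets, of which 46 were higher and 51 lower in MSI2-inducible cells. Of 29 genes with several probe sets, 22 had sets that differed in direction. In 6 genes (Bmi1, Cbx7, Phc2, Kdm2b, Kdm5b and Dnmt3b) every set was lower, and in 1 gene, Kdm6b, every set was higher. Tested on their own, 3 of the 97 had an unadjusted limma p under 0.05, beside 5.72% of all 34945 probe sets, and 0 passed after adjustment. Those 3 belong to the histone demethylases Kdm6b (2.04), Kdm5b (-0.79) and Kdm2b (-0.46), so 1 was higher and 2 lower. That they share a class was seen after their values, and the probe sets of the demethylases Kdm1a and Kdm4a differed by -0.02 to 0.05.

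**Figure D4:**
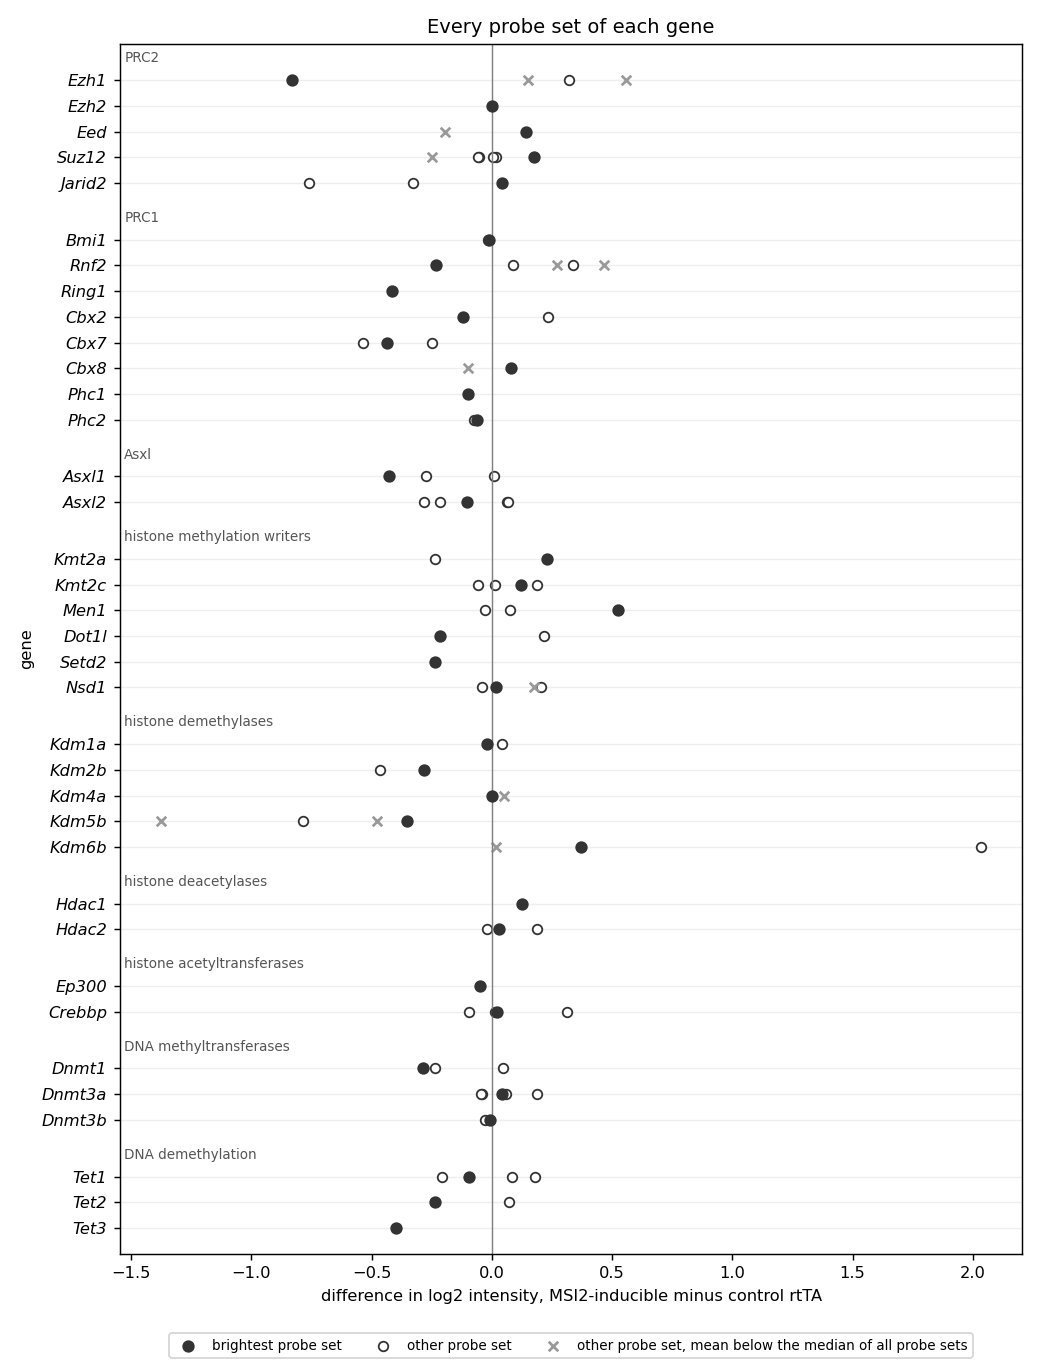
Difference in log2 intensity (MSI2-inducible minus control rtTA, horizontal axis) of all 97 probe sets of the 36 genes, with the brightest set of each gene filled and sets whose mean lies under the median of all probe sets as crosses. The 4 sets of Kdm5b lie left of 0, 1 set of Kdm6b lies at 2.04, and the brightest set of Ezh1 lies at -0.83 with its other sets right of 0.

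The MSI2-inducible arrays differed more from each other than the groups did for most of the genes. For 27 of the 36 genes (75.0%) the gap between both MSI2-inducible arrays was larger than the group difference, beside 65.8% of all genes. A gap between 2 single arrays scatters more than a difference between group means, so this measure favours a larger gap. The median gap was 0.367 for the 36 genes and 0.303 for all genes. MSI2-inducible replicate 1 was the lowest of the 5 arrays for 12 of the 36 (22.2% of all genes), and replicate 2 was the highest for 12 (15.9% of all genes). The median deviation from the control mean over the 36 genes was -0.16 in replicate 1 and -0.00277 in replicate 2 of the MSI2-inducible group, against -0.02, 0.03 and -0.04 in the control rtTA arrays. Without MSI2-inducible replicate 2 the median difference of the 36 genes was -0.16, and without replicate 1 it was -0.00277.

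The widest gaps between the MSI2-inducible arrays, replicate 1 minus replicate 2, were -1.43 for Phc1, -1.19 for Ezh1, -0.91 for Dnmt3a, -0.89 for Ring1, -0.79 for Tet1, -0.78 for Jarid2 and -0.75 for Tet2. In the opposite direction they were 0.73 for Dot1l and 0.67 for Men1. The summed intensity of 9 mature neutrophil genes was 62444 in MSI2-inducible replicate 1 and 11743 in replicate 2, against 26635, 14228 and 26602 in control rtTA arrays, so that the same arrays stood at both ends of that list. In bulk RNA, fewer cells of a type and less RNA per cell cannot be told apart, and the part of other cells in these values was not tested.

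**Figure D5:**
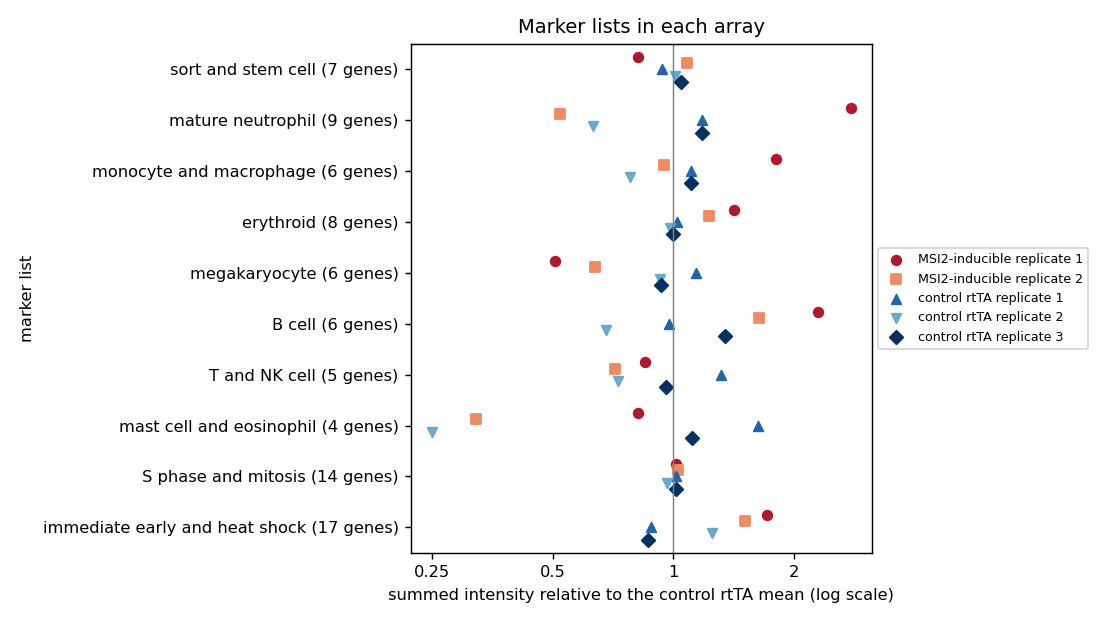
Summed linear intensity of each marker list divided by the mean of the 3 control rtTA arrays (horizontal axis, log scale), with 1 symbol per array. Mature neutrophil genes lie apart in the 2 MSI2-inducible arrays (62444 and 11743 intensity units), and the immediate early and heat shock list lies above every control array in both.

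Of the other marker lists, erythroid genes summed to 11370 to 13145 in MSI2-inducible arrays, against 9086 to 9461 in control rtTA arrays, with 6 of 8 measured genes higher. Bright genes weigh most in such a sum, and Car2, the brightest erythroid gene, differed by 0.14 with overlapping groups. Both MSI2-inducible arrays were above every control array for 2 of the 8 (Epor and Car1) and below for 1 (Gata1, -0.53). Megakaryocyte genes summed to 859 to 1082 in MSI2-inducible arrays, against 1570 to 1928 in control rtTA arrays, with 1 of 6 higher. B cell genes summed to 704 to 987 in MSI2-inducible arrays, against 292 to 578 in control rtTA arrays, with 4 of 6 measured genes under the median of all probe sets. Monocyte and macrophage genes (1045 to 1988 in MSI2-inducible arrays, against 859 to 1221 in control rtTA arrays), T and NK cell genes (561 to 667 in MSI2-inducible arrays, against 570 to 1032 in control rtTA arrays) and mast cell and eosinophil genes (247 to 628 in MSI2-inducible arrays, against 192 to 1254 in control rtTA arrays) overlapped between the groups in their sums. All 6 measured monocyte and macrophage genes were higher. For 1 of these 6, Ccr2, both MSI2-inducible arrays were above every control array (1.67, limma adjusted p 0.226). The sum of the 7 measured genes of the sort and of stem cells overlapped too. It was 6440 to 8518 in MSI2-inducible arrays, against 7413 to 8244 in control rtTA arrays. Of these 7 genes, 2 were higher. Both MSI2-inducible arrays were below every control array for 2 of the 7 (Slamf1, -1.27, and Mecom, -0.58) and above for 0, beside 9.39% and 9.27% of all genes. Genes of S phase and mitosis, with which Ezh2 and Dnmt1 are known to be expressed, summed to 42537 to 43121 in MSI2-inducible arrays, against 40511 to 42510 in control rtTA arrays, a narrow span. In these lists 0 of 82 measured genes passed limma's adjusted p of 0.05. RNA quality, as the 3' minus 5' log2 signal of Gapdh, was 2.22 ± 0.00 (SD, n = 2) in MSI2-inducible and 2.38 ± 0.23 (SD, n = 3) in control rtTA arrays (two-sided exact permutation p = 0.4, where 0.1 is the smallest p that 10 splits allow).

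A wider list of 103 measured chromatin genes, of 112 written, was set beside the 36. It likewise had 0 genes past limma's adjusted p of 0.05, and 3 higher and 1 lower at an unadjusted p under 0.05, where 2.87% and 2.77% of all genes were. The arrays did not overlap for 13 higher and 15 lower genes of the 103 (27.2% in all), beside the 9.27% and 9.39% of all genes given above. Its median difference was -0.00, with 51 genes higher and 52 lower.

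Among the wider genes with arrays above the control, Kat2a, the acetyltransferase of SAGA, lay at 9.34 and 9.27 in MSI2-inducible arrays, against 8.88, 8.64 and 8.54 in control rtTA arrays. Its difference was 0.62 (SE 0.18, limma adjusted p 0.835). Carm1, an arginine methyltransferase that acts with Ep300, differed by 0.63, Gadd45a, a stress gene tied to DNA demethylation, by 0.98, and Kdm5a, the paralogue of Kdm5b, by 0.50. Kdm5a was thus higher in both MSI2-inducible arrays (8.62 and 8.54, against 8.24, 7.79 and 8.21 in control rtTA arrays), while Kdm5b was lower, and neither passed the test.

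Lower in both MSI2-inducible arrays was Pcgf3, a Ring finger partner of variant PRC1, at 7.22 and 7.18, against 7.65, 7.82 and 7.67 in control rtTA arrays. Its difference was -0.51 (SE 0.16, limma adjusted p 0.870). Kat5, the acetyltransferase Tip60, differed by -0.54, Kdm8 by -0.48, and Sin3b, a scaffold for Hdac1 and Hdac2, by -0.29. Of 19 wider Polycomb genes measured, 0 were above and 6 below the control rtTA range in both MSI2-inducible arrays, beside 9.27% and 9.39% of all genes. This class was singled out after its values were seen, and the 15 Polycomb genes among the 36 had 1 above and 1 below. Of the 30 wider histone methylation writers measured 4 were above and 2 below, and of the 25 wider acetylation genes 4 and 4. Of the 15 wider demethylases 2 were above and 2 below, and of the 14 wider DNA methylation genes 3 and 1. The X-linked demethylases Kdm6a and Kdm5c, known to escape X inactivation, differed by -0.24 and -0.23, and the groups overlapped in both.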

How the data were processed

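Expression was measured on 5 arrays, 2 MSI2-inducible and 3 control rtTA. The authors deposited linear intensities of probe sets, already normalized between arrays (array medians 46.4 to 48.3). Per the submitters' processing notes, RMA, affy and R 2.11.0 were used; the step back to a linear scale and a genome build are not given in the sources used here. Their log2 was taken with no pseudocount.

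Gene names come from the platform annotation: of 45101 probe sets, 34958 had 1 gene symbol, 932 several, and 9211 were unnamed here. Symbols were updated by Entrez ID for 34754 of them (GRCm38.p6), and 64 control probe sets were left out. Each of 18193 genes was read by its brightest probe set, so levels are not compared between genes. All 36 genes passed the alternative filter on low values.

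The test was a two-sided moderated one from limma 3.58.1 (lmFit, then eBayes, with group as the only term; R 4.3.3), adjusted by Benjamini-Hochberg over all genes, with a threshold of 0.05. The fit was tested on simulated data. The number of arrays limits the precision. The genes and lists were chosen with earlier results of these data known, so no p over the list alone is given. Array values are printed for genes with an unadjusted p under 0.05 or arrays that do not overlap, then for the 2 brightest others of each role, and of the wider list for up to 4 genes in each direction by p; exceptions are marked, and genes described by a gap between MSI2-inducible arrays, Kit, the sex-linked genes, single probe sets were chosen after their values were seen. Alternatives covered the value per gene, low values, normalization, a pseudocount of 16, replicate number as a block, weights per array, the variance model and leaving out each array.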

Additional observations from a re-analysis of the deposited data

How the results depend on the processing

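Of the 36 genes, 0 were higher and 0 lower at a limma adjusted p of 0.05 in every alternative run, and the same held for the wider chromatin list. Over all genes, 3 were higher and 1 lower; with log2 of value plus 16 these were 1 and 0, with array weights 1 higher, with low values left out 2 lower, with quantile normalization once more 2 lower, and with any array left out 0 to 0 in each direction. With replicate number as a block there were 0 and 0; the labels pair no samples, and deviations of same-numbered arrays correlated at 0.134 and 0.0990. The median difference of the 36 genes was -0.04, and -0.0805 with the replicate block, -0.16 to -0.00277 with an array left out. Where this left 1 MSI2-inducible array, its spread was taken to be that of the control rtTA arrays. Genes of the 36 with an unadjusted p under 0.05 numbered 1, and 0 to 5 with an array left out, the 5 without MSI2-inducible replicate 2. The direction was the same in all settings for 7 genes: Cbx7, Asxl1, Men1, Kdm2b, Kdm5b, Kdm6b and Tet3. Kdm6b differed by 0.37, and by 2.04 without _x_at probe sets and 0.81 with the mean of probe sets; Kdm5b by -0.35, and by -0.75 with the mean of probe sets. None of the direction changes below passed an adjusted p of 0.05, and apart from the choice of probe set or array that defines the setting, the cause was not tested. With the mean of probe sets, Ezh1 (0.0496), Eed (-0.0254), Suz12 (-0.0276), Jarid2 (-0.35), Rnf2 (0.19), Cbx2 (0.0571), Cbx8 (-0.00955), Kmt2a (-0.00348), Dot1l (0.00177), Kdm1a (0.0118) and Kdm4a (0.0256) changed direction. With quantile normalization once more, Ezh2 (-0.0153), Nsd1 (-0.0031), Kdm4a (0.0115) and Hdac2 (-0.00473) changed direction. With array weights, Ezh2 (-0.000537), Phc2 (0.0658), Kdm4a (0.18), Crebbp (-0.0133), Dnmt3a (-0.0665) and Dnmt3b (0.000625) changed direction. With replicate number as a block, Jarid2 (-0.0144), Bmi1 (0.0798), Cbx8 (-0.11), Nsd1 (-0.00319) and Ep300 (0.0666) changed direction. With arrays centred on their medians, Bmi1 (0.00806), Kdm4a (0.0183) and Dnmt3b (0.0108) changed direction. Without _x_at probe sets, Dnmt1 (0.0476) changed direction. With an array left out, differences that changed direction ranged as follows: Ezh2 (-0.0055 to 0.00707), Suz12 (-4.59e-05 to 0.35), Jarid2 (-0.35 to 0.44), Bmi1 (-0.16 to 0.0798), Ring1 (-0.86 to 0.0289), Cbx2 (-0.23 to 0.0146), Cbx8 (-0.23 to 0.39), Phc1 (-0.81 to 0.61), Phc2 (-0.26 to 0.21), Asxl2 (-0.21 to 0.0346), Kmt2c (-0.18 to 0.42), Dot1l (-0.58 to 0.15), Setd2 (-0.49 to 0.0168), Nsd1 (-0.27 to 0.31), Kdm1a (-0.14 to 0.10), Kdm4a (-0.28 to 0.37), Hdac1 (-0.0861 to 0.34), Hdac2 (-0.00303 to 0.0598), Ep300 (-0.22 to 0.0666), Crebbp (-0.0485 to 0.11), Dnmt3a (-0.41 to 0.50), Dnmt3b (-0.0477 to 0.0129), Tet1 (-0.49 to 0.30) and Tet2 (-0.61 to 0.14). Signal near the floor limits Cbx8, which lay at 5.19 to 5.96, around the median of all probe sets (5.57).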
